A study of Mus musculus with 48 samples.

Results

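The subject is how the response of fat to dietary cystine withdrawal differed between subcutaneous white fat (SFAT) and brown fat (BAT) in mice without Cth. The libraries were taken by their labels: the Cth-/- libraries of these 2 depots on the cystine-free diet (CysF) and on the control diet (CTRL), 16 of the 48 in the series. They form 4 groups of 4: SFAT CysF (numbers 16, 17, 18 and 20), SFAT CTRL (12, 13, 14 and 15), BAT CysF (16, 17, 18 and 20) and BAT CTRL (12, 13, 14 and 15). For each gene the diet response of a depot is the log2 fold change of CysF over CTRL, and the depot difference is the SFAT response minus the BAT response.

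Poly(A) RNA of snap-frozen fat from male mice was sequenced after 6 days on the diet, and every group carried the Cth-/- genotype. The 16 libraries of the same depots from Cth+/+ mice on the same diets served to ask whether a depot difference was also seen with the gene present. The labels say nothing of the strain, of the age or of how the deletion was made, and they do not say whether a BAT and an SFAT library of the same number came from 1 mouse, and a p-value here is a statement on the spread among libraries that may be technical. Libraries held 22.2 to 39.0 M reads in SFAT and 24.5 to 46.0 M in BAT. Cth had 0 to 4 reads in SFAT and 0 or 1 in BAT of Cth-/- mice, against 90 to 332 in SFAT and 8 to 44 in BAT of Cth+/+ mice. Zic1, a transcription factor gene of brown adipocytes, stood at 0.041 to 0.138 CPM (read counts scaled to library size) in SFAT and at 6.3 to 12.1 CPM in BAT, while Lhx8, listed with it as a brown marker, did not separate the depots (1.12 to 4.21 CPM in SFAT and 1.55 to 2.47 CPM in BAT). Reads of the pseudogene Gm43512 above 0.1 CPM marked numbers 12, 14 and 20 in both depots, called library set B, and the others set A. SFAT CysF number 20 had 31.3% of its reads on mitochondrial genes, against 10.6 to 11.5% in the other SFAT CysF libraries. BAT CysF number 20 had 37.5%, against 25.5 to 26.9% in the rest of its group. In BAT CTRL, numbers 12 and 14 had 45.7 and 35.6%, against 27.9 and 24.7% in numbers 13 and 15.

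Cystathionine gamma-lyase, the product of Cth, makes cysteine from cystathionine, so a mouse without it depends on cystine in the diet. Brown adipocytes burn fuel in mitochondria that are uncoupled by UCP1, and white fat can take on part of this program when beige adipocytes form among its cells. Subcutaneous white fat is the white depot best known for this, and it also holds the matrix-producing cells that set the structure of the tissue.

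Both depots responded to the diet, mostly in the same direction, and a smaller set of genes responded differently in SFAT and BAT. Of 16193 genes tested, 240 (1.48%) had a depot difference at an adjusted p under 0.05. The SFAT response was above the BAT response for 119 (0.735%) and below it for 121 (0.747%). Within SFAT 4371 genes (27.0%) responded, 2017 (12.5%) higher and 2354 (14.5%) lower in CysF. Within BAT 2708 genes (16.7%) responded, 1277 (7.89%) higher and 1431 (8.84%) lower. Of the 1514 genes called in both depots, 1480 moved in the same direction and 34 in opposite directions. These 2 responses share no library.

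The 240 genes fell into a few patterns. Where SFAT was above BAT, 62 genes had risen in SFAT without a call in BAT, 34 had fallen in BAT without a call in SFAT, and 19 had risen in SFAT and fallen in BAT. Where SFAT was below BAT, 63 had fallen in SFAT without a call in BAT, 34 had risen in BAT without a call in SFAT, and 15 had fallen in SFAT and risen in BAT. In 13 genes both responses were called in the same direction and only their size differed, 9 of them falling further in SFAT. By gene type 228 of the 240 were protein-coding, and 18 had a mean under 1 CPM in SFAT and 14 in BAT. The count of 240 depended on single libraries and on the tool: it was 96 without SFAT CTRL number 12, 106 without BAT CysF number 17, and 766 with DESeq2. It was 935 when libraries of the same number were treated as pairs, which the labels do not settle.

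**Figure D1:**
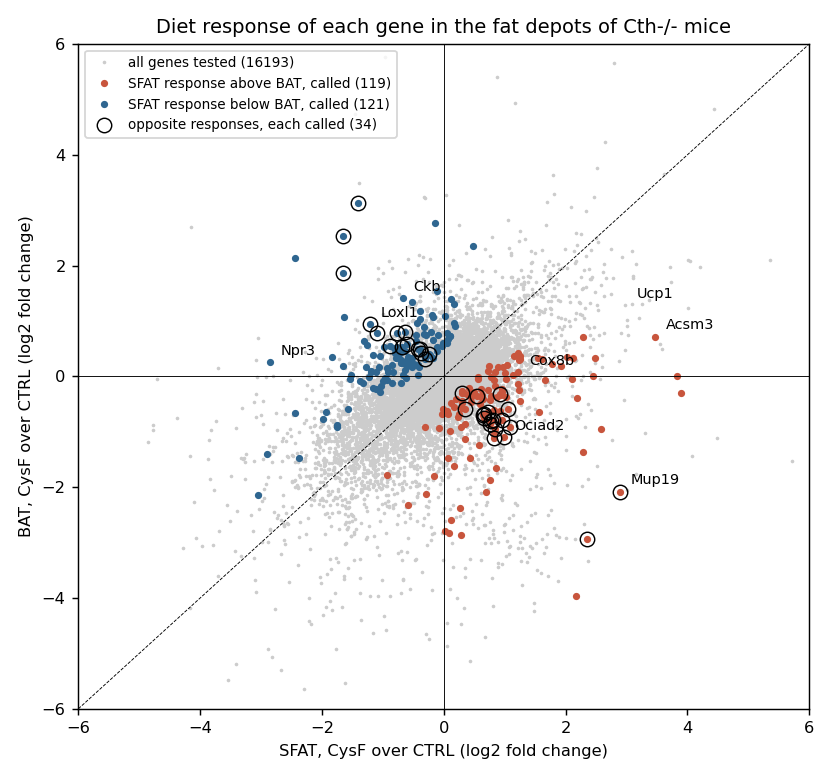
Diet response of 16193 genes in Cth-/- mice, with the log2 fold change of CysF over CTRL in SFAT on the horizontal axis and in BAT on the vertical axis. Red points are the 119 genes with a called depot difference and SFAT above BAT, blue points the 121 with SFAT below BAT, and black rings the 34 with opposite responses; the dashed line marks equal responses, 18 genes lie outside the axes, and Ucp1 is labelled although its difference was not called.

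Opposite responses were called for 34 genes (0.210% of those tested), each with the SFAT response, the BAT response and their difference past the test. Higher in SFAT and lower in BAT on the cystine-free diet were 19 genes (0.117%), and lower in SFAT and higher in BAT were 15 (0.0926%). The CysF and CTRL libraries did not overlap in SFAT for 25 of the 34 (28.2% of all genes tested) and in BAT for 27 (21.0%). The choice of these genes by p in each depot partly fixes this separation. The genes described here are the 10 in each direction whose smaller response was largest, at a mean of at least 1 CPM in each depot.

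Of the genes that rose in SFAT and fell in BAT, Ociad2 (GRCm38 chr5:73322199-73341028, minus strand), which encodes a mitochondrial protein with an OCIA domain, was expressed at a low level. It had 1.27, 1.34, 2 and 1.84 CPM in SFAT CysF libraries, against 0.635, 0.692, 0.719 and 1.21 CPM in SFAT CTRL libraries. In BAT it had 1.3, 1.42, 1.5 and 1.09 CPM in CysF libraries, against 3.26, 2.61, 2.74 and 2.83 CPM in CTRL libraries. Neither pair of groups overlapped, and the depot difference was 2.08 ± 0.33 (SE, adjusted p = 0.0058). The call of Ociad2 was lost in 4 of 28 alternative analyses. Adcyap1r1 (GRCm38 chr6:55451978-55501451, plus strand), the receptor of the neuropeptide PACAP, had 36.3, 40.2, 27.6 and 29.8 CPM in SFAT CysF, against 22.5, 11.1, 17.6 and 11.7 CPM in SFAT CTRL. BAT libraries held 4.51, 4.03, 5.47 and 2.6 CPM on CysF, against 8.74, 7.08, 10.4 and 5.72 CPM on CTRL. All 4 SFAT CysF libraries were above all 4 SFAT CTRL libraries, and all 4 BAT CysF libraries were below all 4 BAT CTRL libraries. Its depot difference was 2.01 ± 0.36 (SE, adjusted p = 0.012).

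Sox4, a transcription factor gene of progenitor cells, responded with 0.96 in SFAT and -0.79 in BAT, a depot difference of 1.75 ± 0.27 (SE, adjusted p = 0.005). Of its exonic sequence 54.6% is shared with a non-coding gene on the other strand, and the sources used here do not say whether counting used the strand. Adora1, the adenosine A1 receptor, which restrains lipolysis in adipocytes, had 124, 131, 161 and 178 CPM in SFAT CysF, against 97.8, 61.5, 108 and 74.4 CPM in SFAT CTRL. Its BAT levels were 90.9, 102, 132 and 104 CPM in CysF and 274, 125, 208 and 130.4 CPM in CTRL. These BAT groups overlapped, and the high values were CTRL numbers 12 and 14. The Adora1 difference of 1.59 ± 0.34 (SE, adjusted p = 0.032) lost the call when any of 7 of the 16 libraries was left out. Fads1, the delta-5 desaturase of polyunsaturated fatty acid synthesis, had a difference of 1.34 ± 0.31 (SE, adjusted p = 0.042), which was lost without any of 13 libraries. In BAT its CysF libraries had 16, 15, 15.5 and 13.7 CPM, against 33.3, 14.4, 30.8 and 18 CPM in CTRL libraries, so that these groups overlapped and the high values were CTRL numbers 12 and 14.

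The glutathione transferase gene Mgst2 had a difference of 1.78 ± 0.36 (SE, adjusted p = 0.023), the sialyltransferase gene St6galnac5 of 1.93 ± 0.39 (SE, adjusted p = 0.023), the F-box gene Fbxo36 of 1.58 ± 0.31 (SE, adjusted p = 0.019) and the RNA-binding protein gene Raver2 of 1.37 ± 0.26 (SE, adjusted p = 0.019). The call of Mgst2 was lost without any of 3 libraries, that of St6galnac5 without any of 4 and that of Fbxo36 without 1. The diet groups overlapped in BAT for Mgst2, St6galnac5 and Raver2, and in SFAT for Fbxo36. The gene with the widest gap was Mup19, a major urinary protein gene. It had 48.4, 28.7, 18.4 and 109 CPM in SFAT CysF, against 6.32, 6.15, 11.2 and 3.8 CPM in SFAT CTRL. In BAT it had 0.992, 2.48, 1.16 and 0.342 CPM in CysF, against 8.87, 3.38, 6.21 and 3.76 CPM in CTRL. The groups overlapped in neither depot, and the difference was 4.97 ± 0.80 (SE, adjusted p = 0.007). Major urinary protein genes are near-identical copies among which reads can be split, so the value is uncertain for this gene as such.

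Of the genes that fell in SFAT and rose in BAT, Loxl1 (GRCm38 chr9:58287738-58313186, minus strand), a lysyl oxidase that crosslinks elastin, had the largest difference at a mean above 5 CPM. It had 36.8, 43.8, 41.2 and 29.7 CPM in SFAT CysF, against 78.3, 114, 58.4 and 102 CPM in SFAT CTRL. BAT libraries held 44.3, 31.8, 32.1 and 38.6 CPM on CysF, against 16.3, 19.9, 20.1 and 19.5 CPM on CTRL. The groups overlapped in neither depot: the SFAT response was -1.22 ± 0.18 (SE, adjusted p = 0.00024), the BAT response 0.95 ± 0.19 (SE, adjusted p = 0.0032) and their difference -2.17 ± 0.26 (SE, adjusted p = 0.0019). P4ha2, a catalytic subunit of the prolyl hydroxylase that modifies collagen, went the same way, at -0.88 in SFAT and 0.55 in BAT with a difference of -1.43 ± 0.24 (SE, adjusted p = 0.0076). The BAT diet groups of P4ha2 overlapped.

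Enzymes of protein processing were also among these genes. Ctsb (GRCm38 chr14:63122462-63145923, plus strand), the lysosomal cysteine protease cathepsin B, had 816, 794, 770.1 and 868 CPM in SFAT CysF, against 1113, 1680, 1042 and 1079 CPM in SFAT CTRL. Its BAT levels were 1733, 2063, 1818 and 1920 CPM in CysF and 1199, 1319, 1182 and 1307 CPM in CTRL. Its response was -0.60 in SFAT and 0.59 in BAT, a difference of -1.19 ± 0.20 (SE, adjusted p = 0.0093), and the diet groups did not overlap in either depot. Pcsk6, a proprotein convertase, had 46.6, 48.8, 52.6 and 47.2 CPM in SFAT CysF, against 82.7, 93.9, 72.9 and 83.8 CPM in SFAT CTRL. In BAT it had 96, 92.6, 95.3 and 81.2 CPM in CysF, against 39.9, 71.4, 41.3 and 59.4 CPM in CTRL. No diet groups overlapped, and the difference of -1.55 ± 0.21 (SE, adjusted p = 0.004) passed the test in all 28 alternative analyses. The remaining genes of this kind were Tmem28, a transmembrane protein gene at 0.41 to 3.32 CPM (-3.52 ± 0.49 SE, adjusted p = 0.004), Fam65b, an inhibitor of the GTPase RhoA (-1.88 ± 0.27 SE, adjusted p = 0.0046), Pdk3, a pyruvate dehydrogenase kinase (-1.21 ± 0.20 SE, adjusted p = 0.0076), and Kctd12, an auxiliary subunit gene of GABA-B receptors (-1.45 ± 0.32 SE, adjusted p = 0.037). Trim16, a tripartite motif protein gene (-0.91 ± 0.19 SE, adjusted p = 0.025), and Myo1c, a myosin of glucose transporter traffic in adipocytes (-0.88 ± 0.17 SE, adjusted p = 0.019), had the smallest differences of the 10. Kctd12 lost its call without any of 9 libraries and Trim16 without any of 7, and 62.8% of the exonic sequence of Kctd12 is shared with a non-coding gene on the other strand. The SFAT diet groups of Kctd12 and of Trim16 overlapped.

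**Figure D2:**
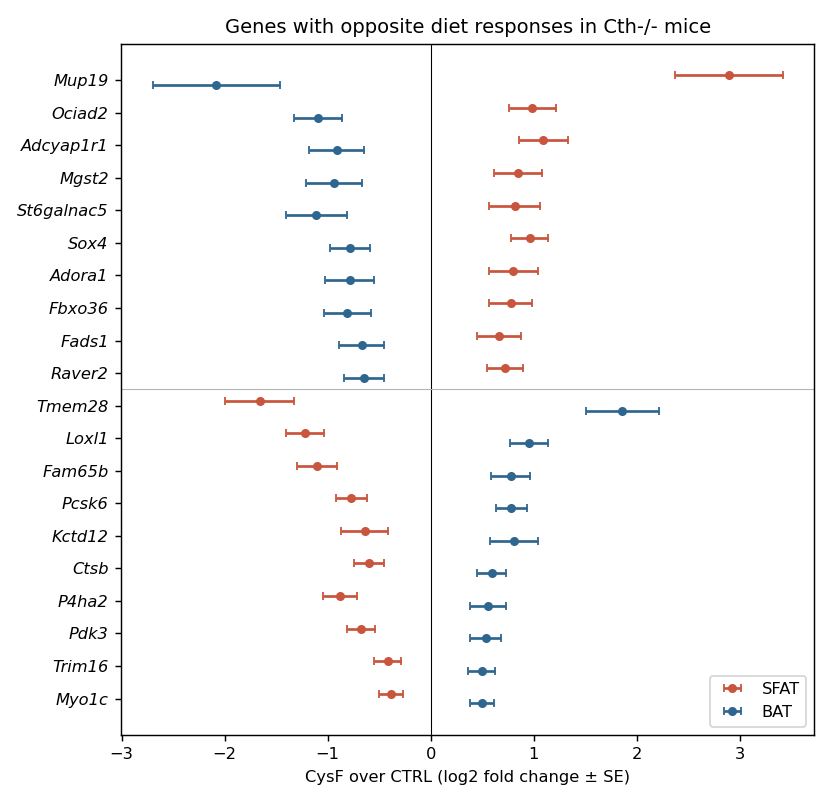
Diet response (log2 fold change of CysF over CTRL, bars ± SE) in SFAT and in BAT for the 10 described genes that rose in SFAT and fell in BAT, above the line, and the 10 that fell in SFAT and rose in BAT, below it. Loxl1 lies at -1.22 in SFAT and at 0.95 in BAT, and Mup19 has the widest bars.

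The promoters of the first 2 opposite genes of each direction with an entry in the RefSeq table are shown. That of Ucp1 is added because this gene was always named, although its depot difference was not called. Each window runs from 250 bases before to 50 after the RefSeq transcription start, 5' to 3' on the gene's strand, in build GRCm38.p6. This start lies 2081 bases from the 5' end of the gene in GENCODE M21 for Ociad2, 857 for Tmem28 and 402 for Pcsk6. For Mup19 and Ucp1 the distance is 45 and 4 bases. Capitals mark a match to any of 7 motifs searched on both strands.
Ociad2 (chr5:73338898-73339197, minus strand): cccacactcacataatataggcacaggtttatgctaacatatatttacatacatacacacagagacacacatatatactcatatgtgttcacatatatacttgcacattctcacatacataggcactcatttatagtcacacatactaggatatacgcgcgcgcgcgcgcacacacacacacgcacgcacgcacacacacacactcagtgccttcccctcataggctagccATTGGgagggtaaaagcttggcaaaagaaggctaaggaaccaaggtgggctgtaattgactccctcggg
Mup19 (chr4:61782175-61782474, minus strand): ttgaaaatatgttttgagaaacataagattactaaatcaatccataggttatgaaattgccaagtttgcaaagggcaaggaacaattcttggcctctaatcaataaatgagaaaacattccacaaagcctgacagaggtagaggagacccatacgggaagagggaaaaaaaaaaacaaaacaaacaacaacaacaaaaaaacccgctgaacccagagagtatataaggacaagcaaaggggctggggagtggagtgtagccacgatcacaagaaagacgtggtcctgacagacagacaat
Tmem28 (chrX:99819914-99820213, plus strand): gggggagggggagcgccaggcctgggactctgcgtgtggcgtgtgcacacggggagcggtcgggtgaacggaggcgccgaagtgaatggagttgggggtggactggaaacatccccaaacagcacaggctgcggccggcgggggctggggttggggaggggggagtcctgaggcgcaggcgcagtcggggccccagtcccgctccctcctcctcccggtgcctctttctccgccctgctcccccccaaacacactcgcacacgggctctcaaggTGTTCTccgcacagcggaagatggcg
Pcsk6 (chr7:65861886-65862185, plus strand): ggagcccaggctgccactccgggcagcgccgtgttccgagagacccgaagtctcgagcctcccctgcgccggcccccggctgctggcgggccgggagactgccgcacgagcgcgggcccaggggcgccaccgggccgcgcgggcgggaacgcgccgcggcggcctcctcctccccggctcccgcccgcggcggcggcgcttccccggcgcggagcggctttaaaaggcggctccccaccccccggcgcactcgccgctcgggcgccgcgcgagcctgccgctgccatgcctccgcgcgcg
Ucp1 (chr8:83290098-83290397, plus strand): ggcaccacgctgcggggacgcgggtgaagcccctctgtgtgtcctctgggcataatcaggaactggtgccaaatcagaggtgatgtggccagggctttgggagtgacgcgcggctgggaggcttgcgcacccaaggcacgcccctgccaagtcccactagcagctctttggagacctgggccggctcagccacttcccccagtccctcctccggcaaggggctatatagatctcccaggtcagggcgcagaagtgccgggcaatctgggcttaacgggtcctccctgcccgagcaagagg
The motifs were the E-box of the clock factors (CACGTG, in 7.15% of 32851 promoters), the cyclic AMP response element (TGACGTCA, 1.79%), the glucocorticoid receptor half-site (AGAACA, 19%), the ATF4 and C/EBP composite element (TGATGNAAT, 0.965%), the interferon-stimulated response element (GAAANNGAA, 8.56%), the estrogen-related receptor element (TCAAGGTCA, 0.423%) and the CCAAT box (CCAAT, 37.4%). Ociad2 held a CCAAT box and Tmem28 a glucocorticoid receptor half-site, each read on the other strand, and the other 3 windows held none of the 7.

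Among genes with at least 5 CPM in each depot, the largest difference with SFAT above BAT was that of Acsm3 (GRCm38 chr7:119760923-119787513, plus strand), a mitochondrial acyl-CoA synthetase of medium-chain fatty acids. It had 107, 176, 152 and 314 CPM in SFAT CysF, against 10.8, 16.9, 20.4 and 19.9 CPM in SFAT CTRL. BAT libraries held 159, 221, 226 and 258 CPM on CysF, against 121, 122, 148 and 134 CPM on CTRL. The SFAT CysF libraries overlapped those of BAT, while the SFAT CTRL libraries were below every BAT library. The SFAT response was 3.46 ± 0.29 (SE, adjusted p = 2.3e-06), the BAT response 0.72 ± 0.27 (SE, adjusted p = 0.076) and the difference 2.75 ± 0.38 (SE, adjusted p = 0.004). Acsm3 shares 39.7% of its exonic sequence with Eri2 on the other strand, and Eri2 averaged 9.44 CPM in SFAT CysF and 7.73 CPM in SFAT CTRL.

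The other genes of this direction came from either depot. Chchd10, a protein of the mitochondrial intermembrane space, had 186, 173, 108 and 188 CPM in SFAT CysF, against 32.4, 39.7, 39 and 61.4 CPM in SFAT CTRL, a response of 1.93 ± 0.21 (SE, adjusted p = 2e-05). Its BAT response was 0.19 ± 0.21 (SE, adjusted p = 0.57) and the difference 1.74 ± 0.29 (SE, adjusted p = 0.0084). The sialyltransferase gene St3gal6 also rose in SFAT (2.12), with a difference of 1.79 ± 0.42 (SE, adjusted p = 0.048) that was lost without any of 12 libraries. In contrast, the monocarboxylate transporter gene Slc16a7 fell in BAT, with 1.9, 3.37, 4.45 and 3.62 CPM in CysF, against 12, 9.37, 10.8 and 8.06 CPM in CTRL, a response of -1.61 ± 0.21 (SE, adjusted p = 0.00022). Its SFAT response was 0.17 ± 0.19 (SE, adjusted p = 0.55) and the difference 1.78 ± 0.28 (SE, adjusted p = 0.0067). Kit, the receptor of stem cell factor, fell in BAT by 1.24 on the log2 scale, a difference of 1.81 ± 0.33 (SE, adjusted p = 0.013). Rims4, a gene of vesicle exocytosis, fell in BAT by 2.12, a difference of 1.83 ± 0.34 (SE, adjusted p = 0.015), and Mr1, which presents vitamin B metabolites to T cells, by 2.33, a difference of 1.75 ± 0.39 (SE, adjusted p = 0.037). B3galt2, a galactosyltransferase gene, was called in BAT (-1.03) and not in SFAT (0.82), with a difference of 1.85 ± 0.44 (SE, adjusted p = 0.05). The calls of Mr1 and B3galt2 were lost without any of 11 and any of 14 libraries.

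At the same limit of 5 CPM in each depot, the largest difference with SFAT below BAT was that of Npr3 (GRCm38 chr15:11839896-11907287, minus strand), the clearance receptor that removes natriuretic peptides. It had 75.9, 31.3, 72.7 and 32.1 CPM in SFAT CysF, against 574, 284, 448 and 236 CPM in SFAT CTRL. Its BAT levels were 134, 109, 90.2 and 76.6 CPM in CysF and 109, 74.7, 113 and 46.2 CPM in CTRL. All SFAT CysF libraries were below all SFAT CTRL libraries, while the BAT groups overlapped. The SFAT response was -2.86 ± 0.38 (SE, adjusted p = 9e-05), the BAT response 0.26 ± 0.36 (SE, adjusted p = 0.66) and the difference -3.12 ± 0.51 (SE, adjusted p = 0.0074), which passed in all 28 alternatives. Fmr1, an RNA-binding regulator of translation, likewise fell in SFAT (-1.53 ± 0.19 SE, adjusted p = 5.9e-05) with a BAT response of 0.03 ± 0.19 (SE, adjusted p = 0.95) and a difference of -1.56 ± 0.27 (SE, adjusted p = 0.0097). The chemokine gene Cxcl14 was called in SFAT (-1.64) and not in BAT (1.06), and its difference of -2.70 ± 0.65 (SE, adjusted p = 0.05) was lost without any of 14 libraries.

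Other genes of this direction rose in BAT without a call in SFAT. Dpep1, a dipeptidase known to split cysteinylglycine, had 60.5, 73.1, 79.8 and 76.7 CPM in BAT CysF, against 21.3, 30.2, 21.2 and 26.6 CPM in BAT CTRL. In SFAT it had 75.2, 80.2, 90.8 and 74.4 CPM in CysF, against 74.9, 113, 62.3 and 95.3 CPM in CTRL. The diet groups did not overlap in BAT and overlapped in SFAT, with a difference of -1.65 ± 0.24 (SE, adjusted p = 0.004) that passed in all 28 alternatives. Ckb (GRCm38 chr12:111669361-111672338, minus strand), the creatine kinase of creatine cycling in thermogenic fat, had 23.7, 23.6, 22.2 and 14.6 CPM in BAT CysF, against 5.34, 11.2, 5.7 and 9.18 CPM in BAT CTRL. In SFAT it had 12.5, 10.2, 13.2 and 6.3 CPM in CysF, against 14.9, 23.5, 11.3 and 18 CPM in CTRL. The BAT response of Ckb was 1.41 ± 0.28 (SE, adjusted p = 0.0039), its SFAT response -0.68 ± 0.27 (SE, adjusted p = 0.08) and the difference -2.09 ± 0.39 (SE, adjusted p = 0.018). Rassf4, a Ras association domain gene, had a BAT response of 1.34 ± 0.22 (SE, adjusted p = 0.0011) and a difference of -1.87 ± 0.31 (SE, adjusted p = 0.007). Pcolce, which enhances the cleavage of procollagen, fell in both depots, by 2.44 in SFAT and 0.67 in BAT on the log2 scale, a difference of -1.77 ± 0.29 (SE, adjusted p = 0.007). Of the 35 genes described so far as largest or opposite, 24 kept their call whichever single library was left out. Only 4 of the 35 kept it in all 28 alternatives.

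**Figure D3:**
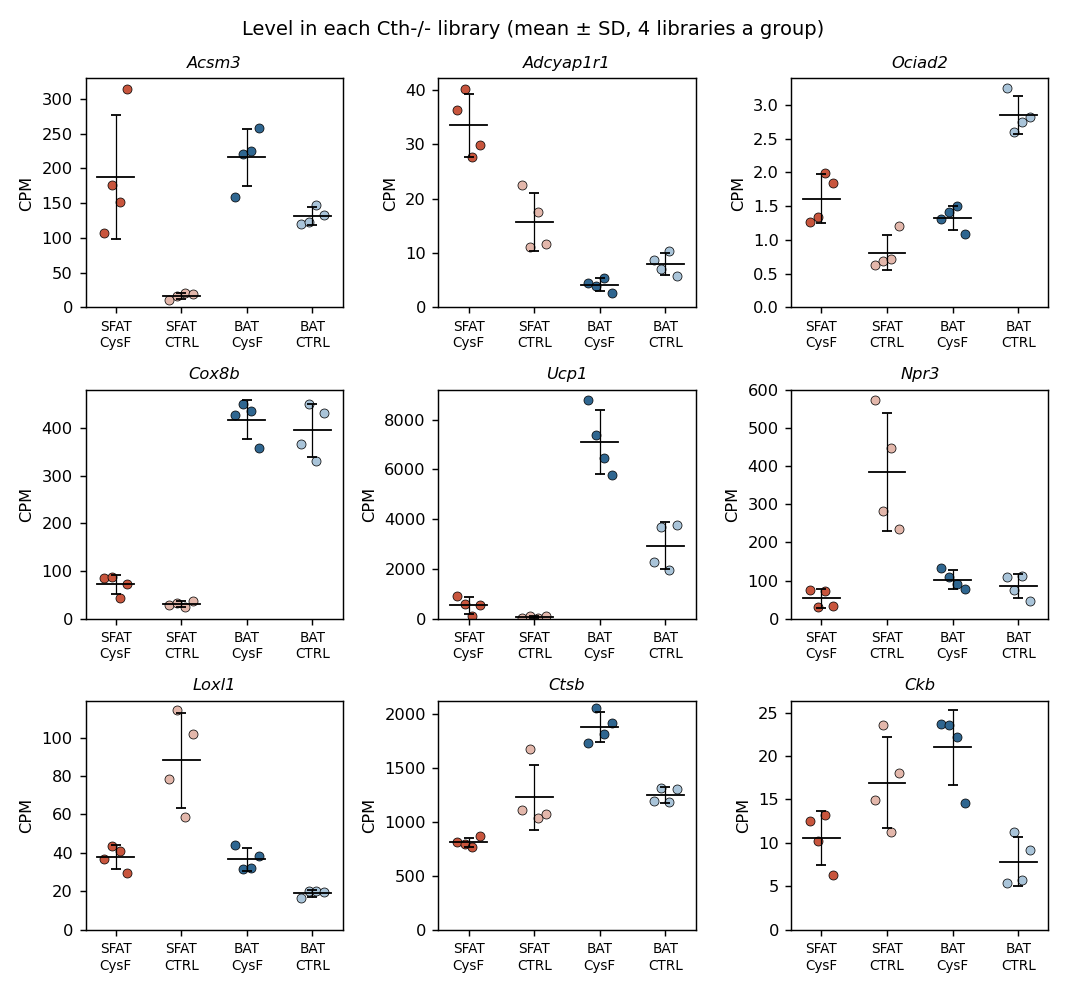
CPM in each Cth-/- library for 9 genes, each with its own axis from 0; groups from left to right are SFAT CysF, SFAT CTRL, BAT CysF and BAT CTRL, points are libraries, and lines with bars are the mean ± SD of 4 libraries. Acsm3 reaches 107 to 314 CPM in SFAT CysF against 10.8 to 20.4 CPM in SFAT CTRL, and Loxl1 moves in opposite directions in the 2 depots.

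More of the heat production genes passed the test in SFAT than in BAT, and few passed that of the difference. Of 25 thermogenic genes tested, 18 were higher and 1 lower in SFAT, and 5 were higher and 1 lower in BAT. Over all genes tested 12.5% were higher and 14.5% lower in SFAT, and 7.89% higher and 8.84% lower in BAT. The depot difference was called for 2 of the 25, against 1.48% of all genes tested. Its median was 0.83 over the list and 0.02 over all genes tested. Ucp1 itself had 918, 598, 90.5 and 567 CPM in SFAT CysF, against 42.6, 117, 24.9 and 90.2 CPM in SFAT CTRL. In BAT it had 8777, 7388, 6467 and 5776 CPM in CysF, against 2259, 3704, 1967 and 3770 CPM in CTRL. The lowest SFAT CysF library, number 18, lay within the SFAT CTRL range, and the BAT groups did not overlap. The SFAT response of Ucp1 was 2.98 ± 0.57 (SE, adjusted p = 0.0014), its BAT response 1.28 ± 0.54 (SE, adjusted p = 0.11) in this fit, and the difference of 1.70 ± 0.75 (SE, adjusted p = 0.28) was not called here or in any of the 28 alternatives.

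The 2 called thermogenic genes were Ppara, a nuclear receptor of fatty acid oxidation, and Cox8b, a respiratory chain subunit of brown and muscle tissue. Ppara had 37.8, 30.6, 25 and 29.9 CPM in SFAT CysF, against 8.12, 10.8, 7.42 and 13.9 CPM in SFAT CTRL. BAT libraries held 141, 144, 141 and 140.0 CPM on CysF, against 87.6, 127, 91.4 and 148 CPM on CTRL. The SFAT groups were apart and the BAT groups overlapped, with a difference of 1.29 ± 0.28 (SE, adjusted p = 0.033). Cox8b rose in SFAT by 1.22 on the log2 scale with a BAT response of 0.08, and its difference was 1.14 ± 0.27 (SE, adjusted p = 0.046). The call of Ppara was lost without any of 10 libraries and that of Cox8b without any of 14. Neither was called when SFAT numbers 14 and 20 were left out.

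Other thermogenic genes had differences that did not pass. Cidea, a lipid droplet protein of brown fat, had 150.3, 139.9, 66.4 and 167 CPM in SFAT CysF, against 35.1, 65.5, 37.5 and 75.4 CPM in SFAT CTRL, and its difference was 1.30 ± 0.37 (SE, adjusted p = 0.089). Dio2, which makes active thyroid hormone, had a difference of 1.91 ± 1.20 (SE, adjusted p = 0.46), the elongase gene Elovl3 of 1.77 ± 0.78 (SE, adjusted p = 0.27) and the coactivator gene Ppargc1a of 0.52 ± 0.33 (SE, adjusted p = 0.46). Adrb3, the beta-3 adrenergic receptor, fell in both depots, at -0.75 in SFAT and -1.79 in BAT, with a difference of 1.04 ± 0.36 (SE, adjusted p = 0.17).

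Most nuclear genes of the respiratory chain were higher in SFAT and were not called in BAT. Of 63 nuclear genes of the respiratory chain and ATP synthase, 55 were higher and none lower in SFAT, against none higher and 1 lower in BAT. The shares of all genes tested were 12.5% higher and 14.5% lower in SFAT, and 7.89% higher and 8.84% lower in BAT. The depot difference was above 0 for 61 of the 63, with a median of 0.41. It was, however, called for 1 alone, against 1.48% of all genes tested. That gene was Atp5g1, a subunit of the ATP synthase ring, which had 1.96, 1.55, 1.98 and 1.57 CPM in BAT CysF, against 3.6, 3.66, 2.69 and 4.11 CPM in BAT CTRL. Its SFAT response was 0.11 ± 0.15 (SE, adjusted p = 0.64), its BAT response -0.99 ± 0.17 (SE, adjusted p = 0.0013) and the difference 1.09 ± 0.22 (SE, adjusted p = 0.024), which was lost without any of BAT CTRL number 15, BAT CysF number 17 and SFAT CysF number 16. Cycs, the electron carrier cytochrome c, stood as an uncalled example at 0.83 ± 0.30 (SE, adjusted p = 0.18). Of 22 citrate cycle genes, 16 were higher in SFAT and 5 in BAT, with no difference called and a median of 0.45. Of 32 fatty acid oxidation genes, 24 were higher in SFAT and 3 in BAT, with a median of 0.45 and Acsm3 called. The BAT count of this list was near the share of all genes tested. The 13 mitochondrially encoded genes had a median difference of 1.57 with none called, and it was 0.50 within library set A and 2.56 within set B. mt-Nd4l, a complex I subunit gene, was at 6325 CPM in SFAT CysF number 20 and at 625 to 802 CPM in the other 3 libraries of the group. In BAT CTRL it was at 17422 and 8604 CPM in numbers 12 and 14, against 2963 and 2518 CPM in numbers 13 and 15.

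**Figure D4:**
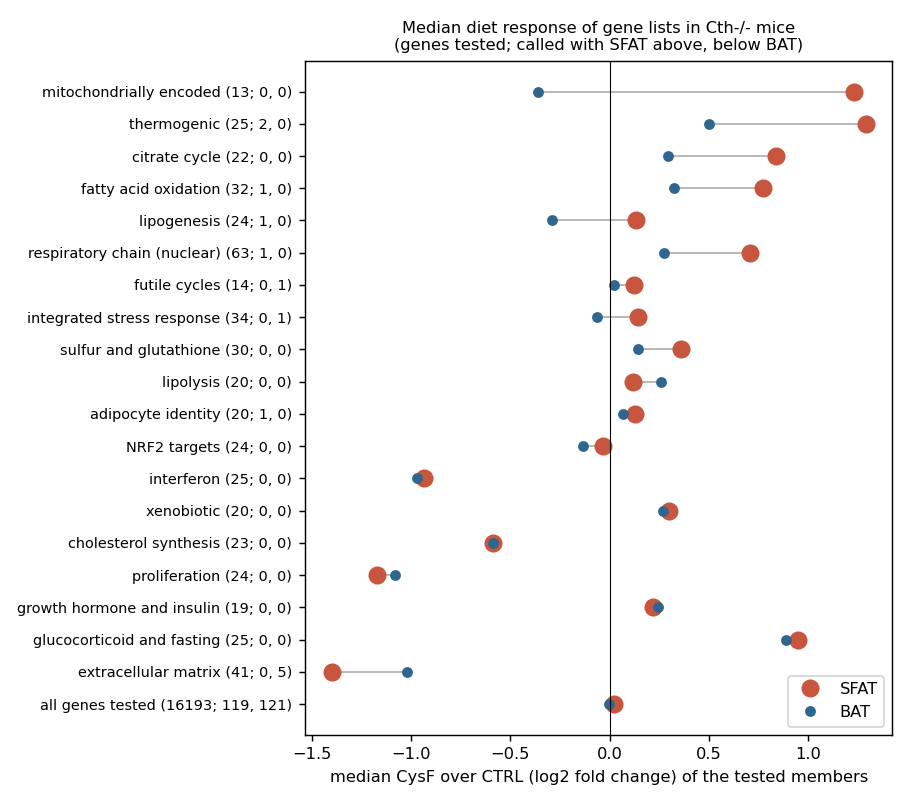
Median log2 fold change of CysF over CTRL in SFAT (large red points) and BAT (small blue points) for 19 gene lists and all genes tested, ordered by the median depot difference of their members. The first number in brackets is the genes tested, followed by those called with SFAT above and with SFAT below BAT; thermogenic genes lie at 1.29 in SFAT and 0.50 in BAT, and extracellular matrix genes at -1.40 and -1.02.

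Most extracellular matrix genes fell in each depot, and 5 had a lower response in SFAT than in BAT. Of 41 tested, 34 were lower and none higher in SFAT, and 26 were lower and 2 higher in BAT. The shares of all genes tested were 14.5% lower and 12.5% higher in SFAT, and 8.84% lower and 7.89% higher in BAT. A depot difference with SFAT below BAT was called for 0.747% of them. The median depot difference of the 41 matrix genes was -0.60. The 5 called genes were Loxl1, P4ha2, Eln, which encodes elastin, Col6a3, a chain of collagen VI, and Sparc, a collagen-binding glycoprotein. Eln had a difference of -1.14 ± 0.25 (SE, adjusted p = 0.037), and Col6a3 fell by 3.05 in SFAT and 2.14 in BAT on the log2 scale, a difference of -0.90 ± 0.20 (SE, adjusted p = 0.039). Eln lost its call without any of 12 libraries and Col6a3 without any of 11. Col1a1, the main chain of collagen I, had 54.2, 68.2, 58.7 and 89.6 CPM in SFAT CysF, against 729, 2241, 508 and 1076 CPM in SFAT CTRL. Its falls of 4.07 in SFAT and 2.91 in BAT differed by -1.16 ± 0.49 (SE, adjusted p = 0.25). Fibrillin gene Fbn1 missed the threshold, with a difference of -1.27 ± 0.31 (SE, adjusted p = 0.052). In such bulk samples fewer cells of a type and less RNA per cell cannot be told apart. Summed CPM of 17 fibroblast markers was 1081 to 1384 in SFAT CysF and 1798 to 3430 in SFAT CTRL, and 274 to 311 in BAT CysF and 404 to 430 in BAT CTRL. Their median depot difference was -0.38 with none called, and their part in the matrix result was not tested.

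Lipid synthesis genes were higher in SFAT for 6 of 24 and lower for 4, and higher in BAT for 3 and lower for 6, with a median difference of 0.415 and Fads1 called. Over all genes tested 12.5% were higher and 14.5% lower in SFAT, and 7.89% higher and 8.84% lower in BAT, so that part of these counts was near the general share. Fasn, the fatty acid synthase, had a difference of 0.45 ± 0.48 (SE, adjusted p = 0.7), and Scd1, a stearoyl-CoA desaturase, of 0.38 ± 0.49 (SE, adjusted p = 0.75). Lpl, which releases fatty acids from circulating triglyceride, rose in BAT (1.08) with an SFAT response of -0.13, and its difference of -1.21 ± 0.30 (SE, adjusted p = 0.057) missed the threshold. The adipokine gene Lep fell in both depots, at -2.02 in SFAT and -3.73 in BAT, with a difference of 1.71 ± 0.85 (SE, adjusted p = 0.33). Adipoq, the adiponectin gene, had a difference of -0.29 ± 0.20 (SE, adjusted p = 0.52). Cfd, the adipokine adipsin, rose in SFAT (1.25 ± 0.15 SE, adjusted p = 4.6e-05) and had a BAT response of 0.31 ± 0.15 (SE, adjusted p = 0.18), with a difference of 0.94 ± 0.21 (SE, adjusted p = 0.04) that was lost without any of 11 libraries.

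In the lists of amino acid and stress responses 1 gene had a called depot difference. Of 34 genes of the integrated stress response, Herpud1, a gene of protein disposal at the endoplasmic reticulum, was called, with a BAT response of 0.55 ± 0.09 (SE, adjusted p = 0.0011), an SFAT response of -0.03 ± 0.09 (SE, adjusted p = 0.83) and a difference of -0.59 ± 0.13 (SE, adjusted p = 0.035) that was lost without any of 9 libraries. Asns, asparagine synthetase, was at 0.71 in SFAT and -0.03 in BAT, a difference of 0.75 ± 0.31 (SE, adjusted p = 0.25). Chac1, which degrades glutathione, rose in both depots, with a difference of -0.33 ± 0.31 (SE, adjusted p = 0.65). None of 30 sulfur and glutathione genes and none of 24 NRF2 targets was called. Of all genes tested 1.48% were, so the absence of calls in lists of this size, here and below, says little. The xenobiotic enzyme gene Cyp2b10 rose by 6.00 in SFAT and 6.29 in BAT on the log2 scale, with a difference of -0.29 ± 0.91 (SE, adjusted p = 0.92). The lysophospholipid transporter gene Mfsd2a rose by 3.01 in SFAT and 6.17 in BAT, and its difference of -3.16 ± 1.01 (SE, adjusted p = 0.13) was not called. Glucocorticoid and fasting genes (25), interferon genes (25), proliferation genes (24), cholesterol synthesis genes (23), lipolysis genes (20), xenobiotic genes (20), and growth hormone and insulin genes (19) had no called difference, with medians between -0.13 and 0.12. Of 14 futile cycle genes Ckb was called.

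Many markers of immune cells fell on the cystine-free diet, and no marker gene of another cell type had a called depot difference. Of the markers tested, 14 of 19 for macrophages, 10 of 12 for B cells and 6 of 11 for T cells fell in SFAT, and 11, 1 (Ighm) and 1 (Trac) of them fell in BAT, while the macrophage gene Mertk rose in SFAT. Of 19 skeletal muscle markers none was called in SFAT, and 4 (Myl1, Casq1, Pvalb and Eno3) fell in BAT. Over all genes tested 14.5% fell in SFAT and 8.84% in BAT. No epithelial marker was called in either depot, and the endothelial genes Flt1 in both depots and Rgcc in BAT rose. Of the genes listed as nerve markers Pmp22 fell in SFAT, Mpzl2, which is not specific to nerve, rose there, and none was called in BAT. Summed CPM of 20 skeletal muscle markers was 46.5 to 1452 in SFAT CysF and 49.1 to 553 in SFAT CTRL, and 82.8 to 331 in BAT CysF and 257 to 1682 in BAT CTRL. Their median depot difference was 4.24, and Tnnt3, a muscle troponin, had 5.30 ± 1.84 (SE, adjusted p = 0.17). For 19 macrophage markers the sum was 601 to 979 in SFAT CysF and 989 to 2870 in SFAT CTRL, and 95.9 to 116 in BAT CysF and 140 to 208 in BAT CTRL. For 15 B cell markers it was 30.5 to 75.1 in SFAT CysF and 113 to 484 in SFAT CTRL, and 4.16 to 10.9 in BAT CysF and 16.1 to 29.5 in BAT CTRL. Their median difference was -2.16, against -0.36 without SFAT numbers 14 and 20. For 12 epithelial markers it was 0.963 to 68.7 in SFAT CysF and 2.65 to 18.7 in SFAT CTRL, and under 1.1 in every BAT library, with 5 of the 12 at 0 in all 8 of them. Markers of T cells (12), endothelium (15) and nerve (10, Mpzl2 among them) had median differences of -0.51, -0.01 and 0.345. Their part in the results above was not tested.

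The depot differences of Cth-/- mice were then set beside those of Cth+/+ mice on the same diets. In Cth+/+ mice no gene of 16910 tested (0%) had a called SFAT minus BAT difference with edgeR, 1026 (6.07%) had an unadjusted p under 0.05, and DESeq2 called 3. The difference between the genotypes was called for 136 genes (0.804%), of which 70 (0.414%) were higher and 66 (0.390%) lower in Cth-/- mice. These included 76 of the 240 genes, all with the sign they had in Cth-/- mice, and 18 of the 34 opposite genes, but both tests use the same Cth-/- libraries. Leaving out SFAT CTRL number 13 of the Cth-/- mice left 43 genes called, and leaving out SFAT CysF number 11 of the Cth+/+ mice gave 303.

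For Acsm3 the depot difference was 2.75 ± 0.38 in Cth-/- mice and -0.78 ± 0.38 in Cth+/+ mice, and the genotypes differed by 3.52 ± 0.54 (SE, adjusted p = 0.0019). For Loxl1 it was -2.17 ± 0.26 in Cth-/- mice and 0.51 ± 0.30 in Cth+/+ mice, a genotype difference of -2.68 ± 0.42 (SE, adjusted p = 0.0019). Ckb had a genotype difference of -2.25 ± 0.50 (SE, adjusted p = 0.029), Ociad2 of 2.52 ± 0.43 (SE, adjusted p = 0.0047), Ppara of 2.54 ± 0.53 (SE, adjusted p = 0.021) and Chchd10 of 2.25 ± 0.44 (SE, adjusted p = 0.014). For Npr3 the values were -3.12 ± 0.51 in Cth-/- mice and -0.08 ± 0.64 in Cth+/+ mice, and the genotype difference of -3.04 ± 0.91 (SE, adjusted p = 0.11) was not called. Of the 35 genes named as largest or opposite, 18 had a called genotype difference. For P4ha2 it was -0.58 ± 0.46 (SE, adjusted p = 0.62), and in Cth+/+ BAT the diet response of this gene was 1.39 (adjusted p = 0.00088).

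**Figure D5:**
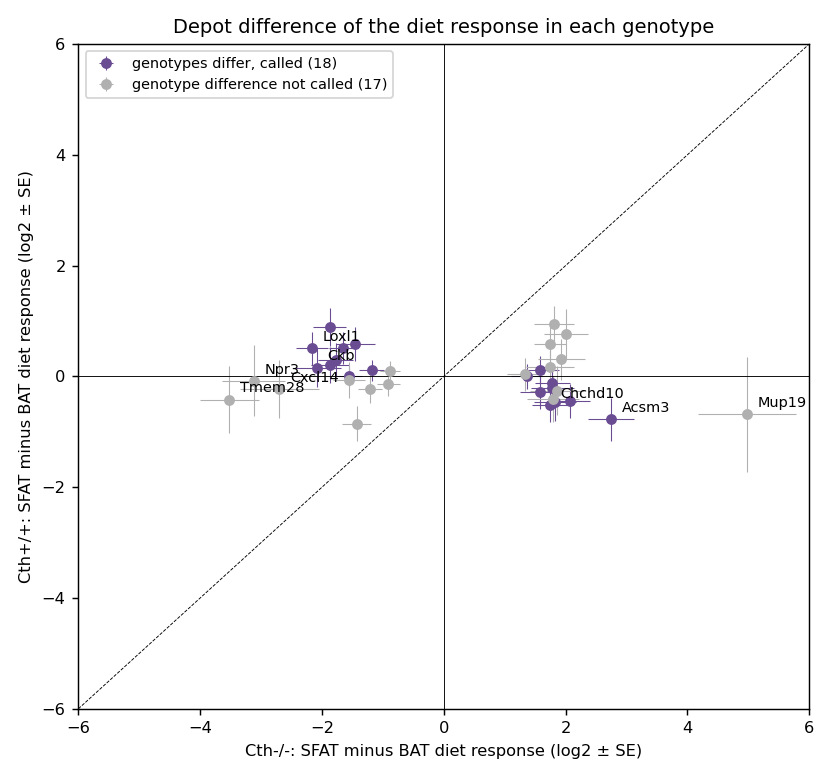
Depot difference of the diet response (SFAT minus BAT, log2 ± SE) in Cth-/- mice on the horizontal axis and in Cth+/+ mice on the vertical axis for the 35 genes with the largest or opposite responses. Purple points are the 18 genes with a called genotype difference and grey points the 17 without, and the dashed line marks equal values; the genes were chosen on the Cth-/- values, and their Cth+/+ values lie nearer to 0 for all 35.

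Visceral fat (EFAT), the third depot of the series, was not used to choose the opposite genes. Its libraries carry the same numbers as those of SFAT and BAT, and the labels do not say whether they came from the same mice. In a fit of all 48 libraries, 10 of the 19 genes that rose in SFAT and fell in BAT were higher in EFAT CysF than in EFAT CTRL of Cth-/- mice and none was lower, where 13.5% of 18348 genes tested were higher. Of the 15 that fell in SFAT and rose in BAT, 8 were lower in EFAT and none higher, where 17.3% of all genes were lower. The opposite genes were chosen for a called SFAT response, and the share of EFAT calls among genes called in SFAT was not computed. These counts are therefore no independent support for the opposite responses. Loxl1 had an EFAT response of -1.69 ± 0.20 (SE; adjusted p = 3.8e-08), Ctsb of -0.82 ± 0.13 (adjusted p = 7.5e-06) and Adcyap1r1 of 1.42 ± 0.31 (adjusted p = 0.00053). Mup19 and Tmem28 had no called response in EFAT, at 0.03 ± 0.91 (adjusted p = 0.98) and 0.98 ± 0.64 (adjusted p = 0.25).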

How the data were processed

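Values are the authors' expected counts for each gene, without scaling, as deposited. The submitters' processing notes name RSEM, STAR, FastQC, Picard and the build mm10, and versions, settings, annotation and strand are not given there. Per library 5.43 to 8.16% of values had decimals, so all were rounded to whole numbers. The members, gene lists and alternatives were chosen with earlier results of these data known.

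The 16 Cth-/- libraries of SFAT and BAT were fitted in 4 groups in edgeR 4.0.16 (R 4.3.3) by its quasi-likelihood F-test, scaled by TMM, after filterByExpr at a minimum count of 10 and a total of 15. Genes were called at a Benjamini-Hochberg adjusted p under 0.05, two-sided; "called", "rose" and "fell" mean this threshold. Fits of 32 libraries in 8 groups gave the Cth+/+ and genotype differences, and 1 of 48 libraries the EFAT responses. CPM values are scaled by TMM and not by gene length. On simulated counts with known depot differences, the test of the difference recovered 94% of those of 2 and 53% of those of 1 on the log2 scale, and 12 of 159 calls were false. The changed genes had a mean of at least 1 CPM and changed in SFAT CysF only. The simulation used the trended dispersion, with no other diet response, no library sets and no outlying libraries. These shares hold for that setting and not for the real libraries.

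Genes were named by rule: 16 always; up to 4 called and 2 uncalled members of each list; the 10 largest differences each way at a mean of at least 5 CPM in each depot; and the 10 opposite genes each way described above. Predicted genes and pseudogenes were left out, and not all uncalled members the rule names are given. Of the genes that the rule names, 1 is not reported here. Coordinates come from GENCODE M21 (GRCm38), to which 47224 of 47729 IDs matched without their version. Promoters are from RefSeq (GRCm38.p6). Alternatives were RLE scaling, no filter, robust dispersion, DESeq2 1.42.0, all 48 libraries, the number as a block, the library set as a term and each set alone, numbers 14 and 20 left out, and each library left out; depots fitted alone and limma 3.58.1 voom with library weights were added after the data were seen. Figures were drawn with matplotlib 3.10.9.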

Additional observations from a re-analysis of the deposited data

Results flagged for a closer look

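The contrasts themselves flag 240 genes whose diet response differed between SFAT and BAT, 34 with opposite responses and 136 whose depot difference differed between genotypes. Among the named genes the genotype difference was called with a positive value (log2) for Acsm3 (3.52), Ppara (2.54), Ociad2 (2.52), Rims4 (2.29), Chchd10 (2.25), Mgst2 (2.00), Slc16a7 (1.91), Adora1 (1.86), Cox8b (1.81), Fbxo36 (1.47) and Raver2 (1.36). It was called with a negative value for Fam65b (-2.77), Loxl1 (-2.68), Ckb (-2.25), Dpep1 (-2.16), Rassf4 (-2.07), Pcolce (-2.07), Kctd12 (-2.04), Pcsk6 (-1.56), Ctsb (-1.30) and Herpud1 (-0.96).

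In 15 of 324 sets of 4 libraries that were looked at, 1 library stood far from the other 3, where chance flags about 1 in 20. Number 20 did so in 7 of them. In SFAT CysF its mitochondrial share was 31.3% (others 10.6 to 11.5%), its mt-Nd4l level 6325 CPM (others 625 to 802), its Dio2 level 127 CPM (others 9.31 to 25.9) and its Myo1c level 132 CPM (others 176 to 184). In BAT CysF its mitochondrial share was 37.5%, its mt-Nd4l level 10351 CPM (others 2612 to 2948) and its Ckb level 14.6 CPM (others 22.2 to 23.7).

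In other SFAT libraries P4ha2 was at 11.4 CPM in CysF number 17 (others 8.73 to 9.09), and in CTRL libraries Ctsb was at 1680 CPM in number 13 (others 1042 to 1113), Ociad2 at 1.21 CPM in number 15 (others 0.635 to 0.719) and Pdk2 at 61.1 CPM in number 15 (others 48.4 to 49.3). In other BAT libraries the fibroblast marker sum was 311.5 CPM in CysF number 16 (others 274 to 277), and Lcn2 was at 0.194 CPM in CysF number 18 (others 1.30 to 1.39). In BAT CTRL libraries Loxl1 was at 16.3 CPM in number 12 (others 19.5 to 20.1) and Cyp2b10 at 5.02 CPM in number 14 (others 1.46 to 1.87).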

How the results depend on the processing

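All 240 genes kept the sign of their depot difference in every alternative run, which their selection by p partly fixes. Their number was 766 with DESeq2, 397 with all 48 libraries, 787 with a term for library set, 82 in set B alone, 85 without numbers 14 and 20 in both depots, and 534 with voom library weights. The share with SFAT above BAT was 49.6%, against 36.1% within set A and 62% with all 48 libraries. Opposite genes numbered 61 with DESeq2, 68 with the set term, 20 in set B, 21 without numbers 14 and 20, and 59 with voom weights. BAT calls numbered 1621 within set A and 1743 within set B. Genotype differences numbered 65 without the low-count filter and 439 with DESeq2, and DESeq2 called 3 differences in Cth+/+ mice. Set B held 1 CysF library in each depot, assumed there to vary like the others. The causes were not tested.

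Leaving out 1 library left 96 to 349 depot differences (152 and 149 without BAT CTRL numbers 12 and 14, 119, 106 and 136 without BAT CysF 16, 17 and 18, 96 and 128 without SFAT CTRL 12 and 13, 130 and 151 without SFAT CysF 16 and 17), 18 to 43 opposite genes, 3153 to 4457 calls in SFAT, 1701 to 3070 in BAT, 0 in Cth+/+ mice and 43 to 303 genotype differences. Uncalled differences changed sign for Cyp2b10 (0.415 within set B, and -0.86 to 0.0739 with 1 library left out, the last without SFAT CysF number 18), Fasn (-0.0554 within set B) and Acot1 (-0.705 within set B).

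The labels do not say whether libraries of the same number share a mouse. Same-numbered libraries of the depots had deviations that correlated at 0.0736 to 0.403, over 0.1 in 7 of 8 pairs, and 5 of 8 BAT libraries correlated best with their own number, a hint from the data that misses the criterion set here of over 0.1 in every pair. With the number as a replicate block, 935 depot differences and 445 genotype differences were called. Differences described above as not called passed under this block for Adrb3 (adjusted p = 0.018), Mfsd2a (0.025), Lep (0.038), Cidea (0.039) and Fbn1 (0.044), and no named gene lost its call. DESeq2 also called Mfsd2a, Cidea and Fbn1. Depth limits Cth, Tmem28 and other genes near 1 CPM.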

Other observations

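In 13 genes the diet moved both depots of Cth-/- mice in the same direction by different amounts, and they were listed after their values were seen. Besides Pcolce, Col6a3 and Sparc, matrix genes among them were Dpt (dermatopontin), which fell by 2.38 in SFAT and by 1.48 in BAT on the log2 scale, Aspn (asporin), which fell by 1.57 and 0.60, and Adamts5, an aggrecan-cleaving protease, which fell by 1.93 and 0.65. Dpt averaged 98.8 ± 22.2 CPM in SFAT CysF and 514 ± 43.6 CPM in SFAT CTRL (SD, n = 4 each), and 11.6 ± 0.78 CPM in BAT CysF and 32.3 ± 1.20 CPM in BAT CTRL. Ccdc3, a secreted protein gene, went the other way in size, with a fall of 0.93 in SFAT and 1.78 in BAT. Katnal2, a katanin-like gene, rose by 2.29 in SFAT and by 0.70 in BAT.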
